A study of Drosophila melanogaster with 140 samples.

Results

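The 100 genes described here carry only a CG number in the count table, the provisional name of a predicted Drosophila gene, and were the CG genes with the largest loss of m6A-IP signal when Mettl3 was knocked down. They were chosen on 24 head libraries. For each of the 2822 CG genes with a mean input level of at least 5 CPM (counts scaled to the total of the library), the log2 of (m6A-IP CPM + 1)/(input CPM + 1) was averaged over replicates, and control RNAi was subtracted from Mettl3 RNAi at 34d and at 5d. The 100 genes with the lowest mean difference over both ages were kept, and 2722 CG genes were not. The table holds 6526 CG genes among 17562 genes (CG4461 was left out of the choice). All values of the 24 head libraries are therefore a description, and tests were made only in the other experiments.

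m6A is a methyl mark that a nuclear complex places on adenosines of mRNA, with Mettl3 (listed as ime4 in the labels) as the catalytic subunit, Mettl14 as its partner, and fl(2)d, vir, Flacc, nito and Hakai as further subunits. Ythdc1 in the nucleus and Ythdf in the cytoplasm bind the mark. In m6A-IP sequencing, an antibody pulls marked RNA fragments out of fragmented polyA+ RNA, and the ratio of the IP to its input rises with the share of copies that carry the mark. In flies the mark lies mainly in the 5' UTR, and it is abundant in the nervous system. A count here covers a whole gene, so the ratio does not separate the 5' UTR from the rest of the transcript.

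The choice used heads of DaGal4>Ime4 RNAi flies (Mettl3 RNAi) and DaGal4>Mcherry RNAi flies (control RNAi) at 34d and 5d, with 3 input and 3 m6A-IP libraries per group and 200 heads per replicate. DaGal4 is active in nearly all cells. The other experiments were 6d heads with input and m6A-IP (2 replicates of ElavGal4c155>UAS-AB(2x), called Aβ42, and 3 of ElavGal4c155>UAS-mcd8GFP, called mCD8-GFP) and 6d brains of the same genotypes (3 libraries each). ElavGal4c155 drives expression in neurons, and Aβ42 is the human peptide of Alzheimer's plaques. Sorted cells, 500 per library, came from brains of flies that also carry UAS-mCD8GFP. Neurons (elavGFP+) were sorted from ElavGal4 and glia (repoGFP+) from RepoGal4 flies with Mettl3 RNAi or control RNAi at 34d and 5d, and GFP-negative cells of the RepoGal4 brains are called repoGFP-. Translating ribosome affinity purification (TRAP) used the same drivers, RNAi lines and ages with UAS-RPL3-FLAG. Its IP holds RNA on FLAG-tagged ribosomes of the driver's cells, and its input is the RNA of the whole brain lysate. Groups of sorted cells and of TRAP libraries had 3 or 4 libraries. Nothing in the labels ties replicates to separate crosses, so p-values measure only the spread between these libraries. According to the study's methods, the flies of all experiments were males. Sorted cells came from dissected brains, and the heads, brains and lysates hold all their cell types.

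CPM outside the heads of the choice, and the Mettl3 levels in those heads given below, are scaled by TMM factors within an experiment. Total counts were 20141287 to 36361242 in the head libraries used for the choice, 18527609 to 21351930 in the Aβ42 heads, 17513035 to 22746821 in the brains, 14334630 to 21968057 in elavGFP+ cells, 10575300 to 15717697 in the repo sort and 2132983 to 17891755 in TRAP. In input heads Mettl3 averaged 1.99 ± 0.20 CPM with Mettl3 RNAi and 6.04 ± 0.20 CPM with control RNAi at 34d, and 2.92 ± 1.02 CPM with Mettl3 RNAi and 4.35 ± 0.17 CPM with control RNAi at 5d (SD, n = 3 each). In sorted cells it averaged 0.970 to 1.24 CPM in the 4 Mettl3 RNAi groups and 5.42 to 8.85 CPM in the 4 control RNAi groups, but passed the test across all genes in no pair of groups (adjusted p 0.339 to 0.999). Glial markers (8 genes, summed) were at 5463 to 10009 CPM in repoGFP+ and 273 to 379 CPM in repoGFP- cells at 34d, and at 18672 to 25954 CPM in repoGFP+ and 725 to 751 CPM in repoGFP- cells at 5d. Neuronal markers (8 genes, summed) stayed at 5876 to 7568 CPM in repoGFP+ cells at 34d, against 8417 to 9193 CPM in repoGFP- cells. In elavGFP+ control cells, glial markers were at 2476 to 3437 CPM at 34d and 5497 to 7175 CPM at 5d.

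The largest loss was in CG43219 (FBgn0262855, 3L, 21220400 to 21223118, plus strand, dm6), a gene of unknown function that shares no exon with another gene. Its log2 m6A-IP/input ratio was 0.80, 0.56 and 0.08 with Mettl3 RNAi at 34d, against 3.78, 4.32 and 4.18 with control RNAi. At 5d it was 0.18, 0.76 and 0.36 with Mettl3 RNAi, against 4.21, 4.01 and 3.65 with control RNAi. The means of the groups thus stood more than 3 log2 units apart at both ages, for a gene at only 3.64 to 6.92 CPM in the inputs. CG6424 followed with a mean difference of -3.06, then CG42392 (-2.75), CG33947 (-2.60), CG7220 (-2.53), CG34132 (-2.47), CG6154 (-2.47), CG2993 (-2.27), CG4168 (-2.25) and CG5938 (-2.20). CG7220 encodes a ubiquitin-conjugating enzyme and CG6154 a protein of the membrane dipeptidase family. CG6424, CG42392, CG33947, CG7220 and CG5938 share exonic bases with other genes (CG46315 and Uhg1, unc-104, APP-BP1 and Irbp18, Daao1, and mrt), and their counts could include RNA of these.

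CG7220 was well covered, with input levels of 218 ± 14.6 CPM with Mettl3 RNAi and 168 ± 8.16 CPM with control RNAi at 34d, and 209 ± 4.74 CPM with Mettl3 RNAi and 218 ± 9.84 CPM with control RNAi at 5d (SD, n = 3 each). Its log2 ratio was -0.09, -0.15 and -0.56 with Mettl3 RNAi at 34d, against 2.19, 2.44 and 2.24 with control RNAi. At 5d it was -0.49, -0.19 and -0.55 with Mettl3 RNAi, against 2.17, 2.08 and 2.05 with control RNAi. CG2993 behaved alike, with -0.11, -0.05 and -0.34 in Mettl3 RNAi heads at 34d, against 2.14, 2.29 and 2.27 in control RNAi heads. For all 100 genes the 3 Mettl3 RNAi values lay below the 3 control values at each age, which the choice itself favours. The mean ratio was above 0 for 36 of the genes with Mettl3 RNAi and 95 with control RNAi at 34d. At 5d it was above 0 for 25 with Mettl3 RNAi and 92 with control RNAi. Neither this count nor that of non-overlap was made over all genes. In the other 2722 CG genes the median of this ratio was -0.68 with Mettl3 RNAi and -0.86 with control RNAi at 34d. At 5d their median was -0.68 with Mettl3 RNAi and -0.63 with control RNAi.

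The limit of the choice fell within a dense run of values. CG14207, a small heat shock protein, was the 99th gene and CG7369 the 100th, both at -1.26, while CG17193 (-1.26) and CG6051 (-1.25) stood just outside. Among the 8198 genes of any name at the same input minimum, the 100 held ranks between 1 and 277. With a pseudocount of 0.25 CPM, 95 of the 100 were kept, with TMM-scaled libraries 97, with 34d alone 87 and with 5d alone 84.

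**Figure D1:**
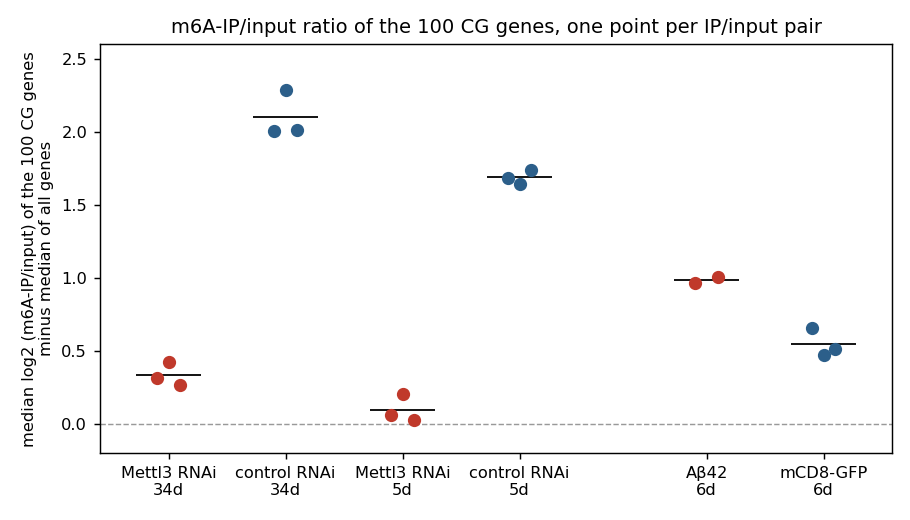
Median log2 m6A-IP/input ratio of the 100 CG genes minus the median of all genes (vertical axis, log2 units), one point per pair of m6A-IP and input libraries, with Mettl3 RNAi (red) left of control RNAi (blue) at 34d and at 5d and Aβ42 (red) left of mCD8-GFP (blue) at 6d, and lines at the group means. All genes are those with a mean of at least 5 CPM, over the inputs of the RNAi heads or over all libraries of the 6d heads. CPM are from library totals in the RNAi heads and TMM-scaled in the 6d heads, so the heights of these parts are not on 1 scale. The Mettl3 RNAi pairs stood at 0.03 to 0.42 and the control pairs at 1.64 to 2.29, as the choice of genes sets, while the Aβ42 pairs (0.97 and 1.01), which the choice did not use, stood above the mCD8-GFP pairs (0.66, 0.47 and 0.51).

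Some features that the choice did not use differed between the 100 genes and the other 2722 CG genes. The 5' UTR of the canonical transcript had a median of 491 bases (quartiles 335 and 677.5) in the 100 genes and 146 bases (quartiles 85.75 and 312) in the other CG genes. The coding length was alike (median 1256 and 1239 bases), and exonic length was 2672 and 1871 bases. The length of the 3' UTR was not measured, so the longer exons are not placed at either end. All 100 genes are protein coding. On the X chromosome lay 9.0% of them and 19.54% of the other CG genes, and on 3L 29.0% and 18.66%. Exonic overlap with another gene was as frequent (38.0% and 38.94%), and the strand setting of the counting is not given in the sources used here. The median input level was 35.31 CPM (5.68 to 253.1) in the 100 genes and 27.66 CPM in the other CG genes. These are descriptions of one list, without a test.

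The genes include transporters and channels (CG13796 and CG15279 of the SLC6 family, CG5687 of the SLC5 type, CG6356 of the SLC22 type, the sugar transporter relative CG10960, the sodium/calcium-potassium exchanger relative CG1090 and the cyclic nucleotide-gated channel subunit CG42260). They also include enzymes, among them CG6145 (an NAD kinase), CG2246 (ribose-phosphate pyrophosphokinase), CG5966 (a lipase) and CG17698 (a CaM kinase kinase relative). In the current annotation 8 of the 100 have a name: CG5830 is hzg, CG10960 nebu, CG31694 Ifrd1, CG31324 Cipc, CG4341 Tmtc2, CG34351 dcma, CG33970 osy and CG6145 Nadk1a.

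The RNA level of the 100 genes in the input heads is given here without a comparison to the ratio, whose large change with Mettl3 RNAi chose the genes. At 34d 56 genes were higher and 44 lower with Mettl3 RNAi (median log2 difference 0.07, all genes -0.04, range -0.71 to 1.48), and at 5d 78 were higher and 22 lower (median 0.16, all genes 0.06, range -0.30 to 0.69). Both extremes at 34d were singled out after their values were seen. CG13272 (FBgn0086673, 2L, 16804884 to 16816069, plus strand) had 8.06, 8.02 and 9.19 CPM with Mettl3 RNAi, against 2.34, 2.85 and 1.96 CPM with control RNAi, with no overlap. CG40006, a relative of the CD36 scavenger receptors, had 26.8, 29.8 and 26.8 CPM with Mettl3 RNAi, against 44.6, 49.3 and 44.5 CPM with control RNAi. At 5d CG13272 overlapped between the groups (7.21, 9.44 and 11.0 CPM with Mettl3 RNAi, against 8.86, 3.82 and 5.00 CPM with control RNAi), and its ratio was 0.65, 1.05 and 0.52 with Mettl3 RNAi, against 2.93, 2.29 and 2.90 with control RNAi. Input libraries entered the choice, where a higher input with Mettl3 RNAi lowers the ratio, so no test was made. The numbers of all genes higher and lower were not counted.

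The m6A-IP signal of the genes was present in heads that the choice did not use. In mCD8-GFP control heads at 6d, 82 of the 100 genes were higher and 6 lower in the m6A-IP than in the input (adjusted p under 0.05, edgeR's quasi-likelihood test with Benjamini-Hochberg adjustment over all genes, as throughout), while over all 9955 genes tested 34.8% were higher and 36.4% lower. The median log2 change was 0.58 for the 100 genes and -0.04 for all genes. CG6424 had 79.9, 58.5 and 70.8 CPM in the m6A-IP, against 13.2, 10.3 and 14.0 CPM in the input, a log2 change of 2.48 ± 0.07 (SE, adjusted p = 3.32e-30). CG33947 had 46.6, 36.4 and 37.5 CPM in the m6A-IP, against 7.53, 9.68 and 8.51 CPM in the input (2.22). CG43219 rose by 2.30, CG13272 by 2.18 and CG14301 by 2.11 on the log2 scale. Each IP library was above every input library for these genes.

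The 6 genes below input were CG6574, CG17698, CG17486, CG3625, CG6145 and CG10960. CG6574 had 7.36, 8.70 and 7.47 CPM in the m6A-IP, against 13.9, 12.5 and 11.8 CPM in the input, a log2 change of -0.70. CG17698 had 49.3, 51.9 and 51.4 CPM in the m6A-IP, against 73.7, 77.5 and 69.3 CPM in the input (-0.53). These 6 genes lost IP signal with Mettl3 RNAi in the choice, yet their whole-gene counts stood below input in these control heads.

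In heads with neuronal Aβ42 the m6A-IP/input ratio of most of the 100 genes was higher than in mCD8-GFP heads. It rose for 70 and fell for 0 of the 100 genes, whereas over all 10463 genes tested 9.54% rose and 14.8% fell. At an unadjusted p under 0.05, 76 were higher and 0 lower (14.1% and 21.4% of all genes), and DESeq2 called 66 (15.4% of all genes in either direction), 0 of them lower. Among the 3686 other CG genes tested 6.32% rose and 14.1% fell. The median log2 change was 0.41 for the 100 genes and -0.06 for all genes, and 94 of the 100 values were positive. Every Aβ42 pair lay above every mCD8-GFP pair for 78 of the genes and below for 0, while over all genes this held for 20.1% and 30.4%. With RLE scaling the counts were 76 and 0 for the 100 genes (median 0.48, all genes 0.01), and the split over all genes was 1479 higher and 1041 lower, in place of 998 higher and 1551 lower. DESeq2 with its own size factors called 1036 genes higher and 572 lower.

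CG43219 had log2 ratios of 2.94 and 3.41 in Aβ42 heads, against 2.48, 1.81 and 2.15 in mCD8-GFP heads, a change of 1.04 ± 0.17 (SE, adjusted p = 8.68e-05). The IP stood at 66.9 and 73.0 CPM in Aβ42 heads and 44.1, 29.5 and 34.4 CPM in mCD8-GFP heads, with inputs of 7.83 and 5.97 CPM in Aβ42 heads and 7.07, 7.70 and 6.96 CPM in mCD8-GFP heads. So its IP was higher at a like input level. CG6424 had ratios of 3.14 and 3.20 in Aβ42 heads, against 2.51, 2.40 and 2.26 in mCD8-GFP heads (0.85 ± 0.13, adjusted p = 1.24e-05). Its IP overlapped between the groups (76.8 and 80.4 CPM in Aβ42 heads, 79.9, 58.5 and 70.8 CPM in mCD8-GFP heads), while its input was lower in Aβ42 heads (7.83 and 7.84 CPM, against 13.2, 10.3 and 14.0 CPM). A higher ratio thus came with a higher IP in CG43219 and with a lower input in CG6424.

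The other genes with the largest changes were CG8519 (log2 ratios 1.62 and 1.97 in Aβ42 heads, against 1.11, 1.05 and 0.93 in mCD8-GFP heads, change 1.00, adjusted p = 0.00166), CG42238 (0.82, adjusted p = 6.33e-07) and CG33947 (0.81, adjusted p = 0.000223). CG7220, the ubiquitin-conjugating enzyme, had 1.69 and 1.73 in Aβ42 heads, against 1.28, 1.10 and 1.09 in mCD8-GFP heads (0.55, adjusted p = 2.05e-05). CG2993 had 1.52 and 1.62 in Aβ42 heads, against 1.13, 0.88 and 0.82 in mCD8-GFP heads (0.63, adjusted p = 7.55e-06). Of the 10 genes with the largest loss under Mettl3 RNAi, all but CG34132 passed the test, and CG34132 had a change of 0.67 (adjusted p = 0.0534). Across the 100 genes the change in Aβ42 heads and the value of the choice had a Spearman correlation of -0.38. The change in Aβ42 heads and the log2 change from input to m6A-IP in mCD8-GFP heads had a correlation of 0.50. The latter and the value of the choice had a correlation of -0.25. These are descriptions over genes that share their libraries and were selected by the value of the choice. Whether the rise with Aβ42 goes with the loss under Mettl3 RNAi or with m6A-IP signal in general was not tested.

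Among the writers and readers of the mark, the ratio of Ythdc1 (0.57) and fl(2)d (0.52) rose and that of vir fell by 0.35, while Mettl3 RNA was at 5.68 ± 0.21 CPM in Aβ42 heads and 5.65 ± 0.77 CPM in mCD8-GFP heads. The count of 70 rests on 2 Aβ42 pairs, and for the settings that follow the shares of all genes are not given. Without Aβ42 replicate 2 it was 40, with the remaining pair assumed to vary like the controls, and without the pairing of IP and input it was 29, in both cases with 0 lower.

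**Figure D2:**
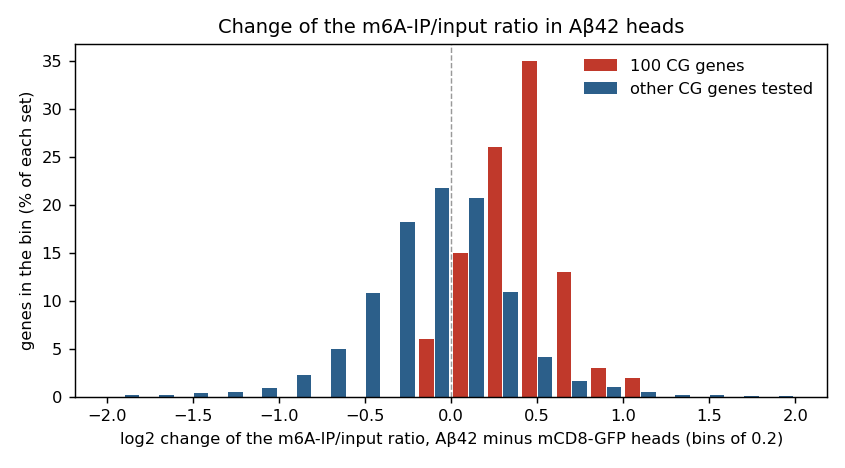
Share of genes (vertical axis, percent of each set) by the log2 change of the m6A-IP/input ratio in Aβ42 against mCD8-GFP heads (horizontal axis, bins of 0.2), for the 100 CG genes (red) and the other CG genes tested (blue). The fullest bin was 0.4 to 0.6 for the 100 genes (35%) and -0.2 to 0 for the other CG genes (21.8%), and 6% of the 100 genes lay below 0.

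The RNA level of the genes with Aβ42 was measured in the same heads (inputs) and in separate brains. In heads, 10 of the 100 genes rose and 25 fell with Aβ42, while 18.5% of all 10210 genes tested rose and 17.5% fell. In brains, 13 of the 99 genes tested rose and 22 fell, while 16.0% of all 9759 genes rose and 15.0% fell. The medians were -0.09 in heads (all genes 0.01) and -0.06 in brains (all genes 0.02). Higher in both tissues were 7 genes, of 10 in heads and 13 in brains, and 14 were lower in both, of 25 and 22. The same overlap over all genes is not given here. The Spearman correlation of the changes was 0.59 over the 99 genes, whose libraries are separate but share the genotypes. The head inputs are also the denominators of the ratios above. Counts of genes that moved in both measures are therefore not given.

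The largest change was that of CG5830 (hzg, FBgn0036556, 3L, 15992669 to 16004736, minus strand), which encodes a phosphatase of the family that acts on the RNA polymerase II tail and shares no exon with another gene. It had 523 and 531 CPM in Aβ42 heads, against 97.6, 99.5 and 114 CPM in mCD8-GFP heads, a log2 change of 2.35 ± 0.08 (SE, adjusted p = 1.73e-10). In brains it had 1174, 1055 and 989 CPM with Aβ42, against 96.6, 88.0 and 99.96 CPM with mCD8-GFP (3.50 ± 0.09, adjusted p = 2.28e-06). The groups were far apart in both tissues, and its m6A-IP/input ratio changed by 0.14 (adjusted p = 0.277), one of the 30 ratios that did not pass the test.

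CG42365 had 11.6 and 14.4 CPM in Aβ42 heads, against 6.38, 6.22 and 6.86 CPM in mCD8-GFP heads (log2 change 1.00, adjusted p = 5.29e-05). In brains it had 14.2, 14.4 and 15.5 CPM with Aβ42, against 5.18, 5.42 and 5.20 CPM with mCD8-GFP (1.48, adjusted p = 4.44e-05). It overlaps PIG-M, CG42379, CG42380 and CG42381 on the opposite strand. CG31694, named Ifrd1 after its mammalian relative, had 133 and 133 CPM in Aβ42 heads, against 86.8, 95.0 and 92.5 CPM in mCD8-GFP heads (0.55). In brains it had 179.7, 164 and 164 CPM with Aβ42, against 100.2, 99.8 and 107 CPM with mCD8-GFP (0.73). CG31345, CG14669, CG42260 and CG7841 also rose in both tissues, by 0.30 to 0.59. CG31324, named Cipc after a mammalian partner of the clock protein, had 92.9, 102 and 94.7 CPM in Aβ42 brains, against 56.3, 54.6 and 59.7 CPM in mCD8-GFP brains (0.77, adjusted p = 0.000102), and in heads a change of 0.31 (adjusted p = 0.118).

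Among the genes that fell, CG32052 had 30.5 and 28.8 CPM in Aβ42 heads, against 48.6, 48.7 and 46.7 CPM in mCD8-GFP heads (log2 change -0.69). In brains it had 72.2, 56.5 and 56.7 CPM with Aβ42, against 101, 99.9 and 104 CPM with mCD8-GFP (-0.72). It shares exonic bases with the insulin-like peptide gene Ilp1 on the same strand. CG15522 had 16.0 and 14.6 CPM in Aβ42 heads, against 21.5, 24.6 and 26.3 CPM in mCD8-GFP heads (-0.66), and in brains 24.6, 27.5 and 27.0 CPM with Aβ42, against 39.0, 39.5 and 36.1 CPM with mCD8-GFP (-0.53). CG6424 fell by 0.67 in heads and, with 5.47, 5.23 and 3.98 CPM in Aβ42 brains against 9.06, 8.75 and 9.85 CPM in mCD8-GFP brains, by 0.91 in brains (adjusted p = 0.00319). CG34351 (-0.53 in heads, -0.36 in brains), CG6836 (-0.33 and -0.59), CG6154 (-0.37 and -0.24) and CG4168 (-0.42 and -0.29) were lower in both.

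Cell type markers moved with the groups. Summed photoreceptor markers (6 genes) were at 38504 to 39420 CPM in Aβ42 heads and 55893 to 56771 CPM in mCD8-GFP heads, and at 26394 to 33947 CPM in Aβ42 brains and 47876 to 52700 CPM in mCD8-GFP brains. Neuronal markers (8 genes) were at 3684 to 4080 CPM in Aβ42 heads and 4711 to 5021 CPM in mCD8-GFP heads, glial markers (8 genes) at 2055 to 2152 CPM in Aβ42 heads and 2391 to 2565 CPM in mCD8-GFP heads, and fat body markers (4 genes) at 3220 to 3795 CPM in Aβ42 heads and 6840 to 9032 CPM in mCD8-GFP heads. In these 4 lists every Aβ42 library lay below every mCD8-GFP library, in brains too. Muscle markers (6 genes) were at 3038 to 3276 CPM in Aβ42 heads and 3868 to 4386 CPM in mCD8-GFP heads, but overlapped in brains (56.2 to 167 CPM with Aβ42, 79.0 to 90.1 CPM with mCD8-GFP). Hemocyte markers (5 genes) were at 702 to 831 CPM in Aβ42 heads and 856 to 947 CPM in mCD8-GFP heads, and at 397 to 533 CPM in Aβ42 brains and 774 to 886 CPM in mCD8-GFP brains. Their part in the changes of the 100 genes was not tested, and in whole heads and brains fewer cells of a type and less RNA per cell cannot be told apart. The brain count of 35 rested on single libraries: it was 21 without Aβ42 replicate 2, control replicate 2 or control replicate 3, and 22 without control replicate 1.

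**Figure D3:**
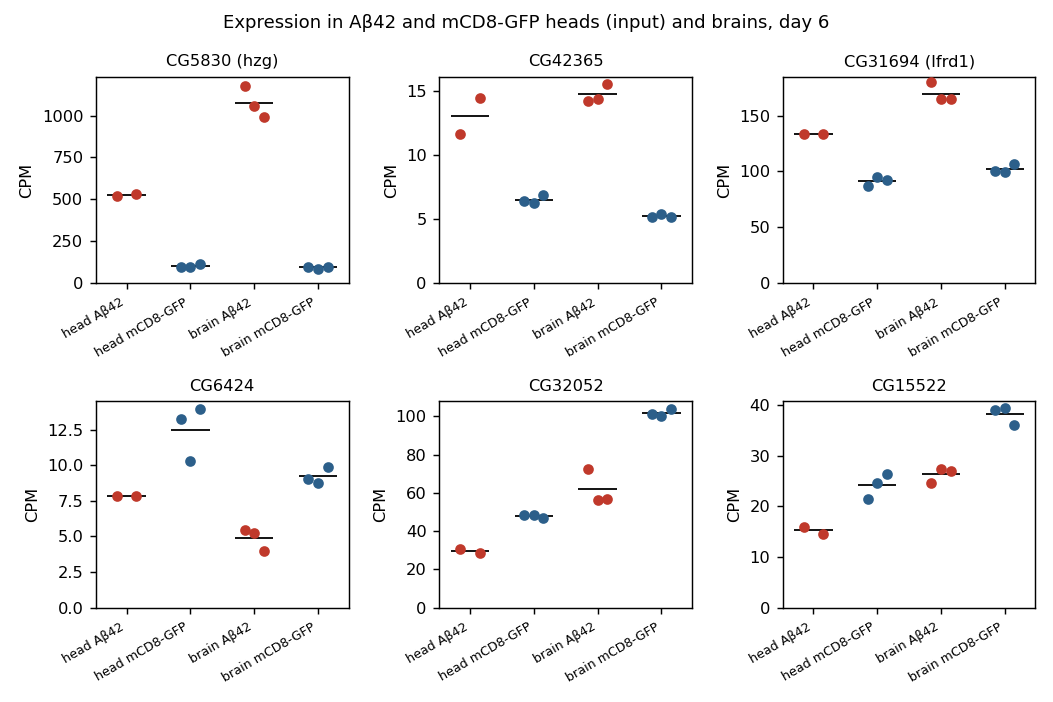
Expression (CPM) of 6 of the CG genes in head inputs and brains at 6d, one point per library, Aβ42 in red and mCD8-GFP in blue, with lines at the group means. CG5830 (hzg), CG42365 and CG31694 (Ifrd1) stood higher in Aβ42 in both tissues and CG6424, CG32052 and CG15522 lower, without overlap between the groups.

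Sorted brain cells of control RNAi flies were used to ask in which cells the RNA of the genes lay. At 34d 4 of the 92 genes tested were higher and 1 lower in repoGFP+ than in repoGFP- cells, beside 5.46% of all 9027 genes higher and 1.23% lower. At an unadjusted p under 0.05 there were 18 (18.3% of all genes), and with DESeq2 11 (12.2%). At 5d 11 of 95 genes were higher and 12 lower, beside 13.3% of all 9181 genes higher and 4.77% lower. The lower ones at 5d were 12.6% of the genes, against 4.47% of the other CG genes tested. The 5 genes called at 34d were among the 23 called at 5d. A test of the difference between the ages, 34d minus 5d, called 0 of 97 genes (0.0305% of all 9834 genes), with 10 at an unadjusted p under 0.05 (9.50% of all genes) and 2 with DESeq2 (1.85%).

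Transporters were among the genes higher in repoGFP+ cells. CG5687, of the SLC5 type, had 12.7, 57.5 and 23.6 CPM in repoGFP+ cells at 34d, against 0.246, 0.145 and 0.157 CPM in repoGFP- cells, 1202 counts against 7. This is a ratio of 158, with a 95% exact counting interval of 76.4 to 393 that covers counting error only. At 5d it had 62.3, 59.3 and 157 CPM in repoGFP+ cells, against 0.252, 0.0690 and 2.03 CPM in repoGFP- cells (log2 change 6.89 ± 1.03, SE, adjusted p = 0.0041). CG5687 shares exonic bases with CG46523 on the same strand. CG6356, of the SLC22 type, had 50.6, 14.5 and 38.2 CPM in repoGFP+ cells at 34d, against 0.164, 0.217 and 0.235 CPM in repoGFP- cells (ratio of counts 167, interval 84.7 to 388). At 5d it had 84.4, 65.6 and 187 CPM in repoGFP+ cells, against 0, 0.0690 and 0.0754 CPM in repoGFP- cells, 4105 counts against 2 (ratio 2120, interval 588 to 17500). Every repoGFP+ library lay far above every repoGFP- library for both genes.

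CG15611 (FBgn0034194, which shares no exon with another gene) had 34.5, 16.4 and 50.9 CPM in repoGFP+ cells at 34d, against 0.164, 1.59 and 0 CPM in repoGFP- cells (log2 change 5.78, adjusted p = 0.0419). At 5d it had 108, 137 and 233 CPM in repoGFP+ cells, against 0, 0 and 0.0754 CPM in repoGFP- cells, 5883 counts against 1. CG10660 had 16.5, 37.3 and 35.1 CPM in repoGFP+ cells at 5d, against 0.884, 0 and 0.0754 CPM in repoGFP- cells (6.42, adjusted p = 0.00922). CG6836 had 24.3, 33.8 and 46.4 CPM in repoGFP+ cells at 5d, against 1.64, 0 and 2.19 CPM in repoGFP- cells (4.74, adjusted p = 0.0237). These RNAs were nearly absent from the GFP-negative cells. CG10365 (2.07 at 34d, 2.58 at 5d), CG33970 (osy, an ABC transporter of the cuticle barrier, 2.47 at 5d), CG13698, CG32638, CG10960 and the SLC6 relative CG15279 were the other genes higher in repoGFP+ cells. Hemocyte markers (5 genes, summed) were at 343 to 772 CPM in repoGFP+ and 0.694 to 7.17 CPM in repoGFP- cells at 5d. Fat body markers (4 genes, summed) were at 206 to 308 CPM in repoGFP+ and 6.25 to 7.32 CPM in repoGFP- cells at 5d. Both lists were also higher in repoGFP+ cells at 34d, and their part in these calls was not tested.

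The genes lower in repoGFP+ cells differed by much less. CG30419 had 8.995, 6.08 and 11.0 CPM in repoGFP+ cells at 5d, against 33.3, 25.9 and 32.3 CPM in repoGFP- cells (log2 change -1.83 ± 0.32, SE, adjusted p = 0.0082). CG16854 had 75.7, 44.3 and 100.2 CPM in repoGFP+ cells, against 172, 147 and 163 CPM in repoGFP- cells (-1.15, adjusted p = 0.0318). CG11099 had 144, 161 and 126 CPM in repoGFP+ cells, against 276, 286 and 239.5 CPM in repoGFP- cells (-0.91, adjusted p = 0.00559). CG12541 (-1.14), CG33543 (-0.94), CG32052 (-0.84), CG34351, CG44098, CG13920, CG3625, CG7646 and CG40498 fell too. At 34d CG3625 had 301, 294 and 306 CPM in repoGFP+ cells, against 414, 386 and 447 CPM in repoGFP- cells (-0.49, adjusted p = 0.0385). The part of the neuronal marker RNA that the repoGFP+ fraction also held, as given above, was not tested. The 5d count of 23 was 13 without repoGFP- replicate 1 or 3 and 15 without repoGFP- replicate 2. The 34d count of 5 was 2 without repoGFP- replicate 1 and 3 without any other library.

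**Figure D4:**
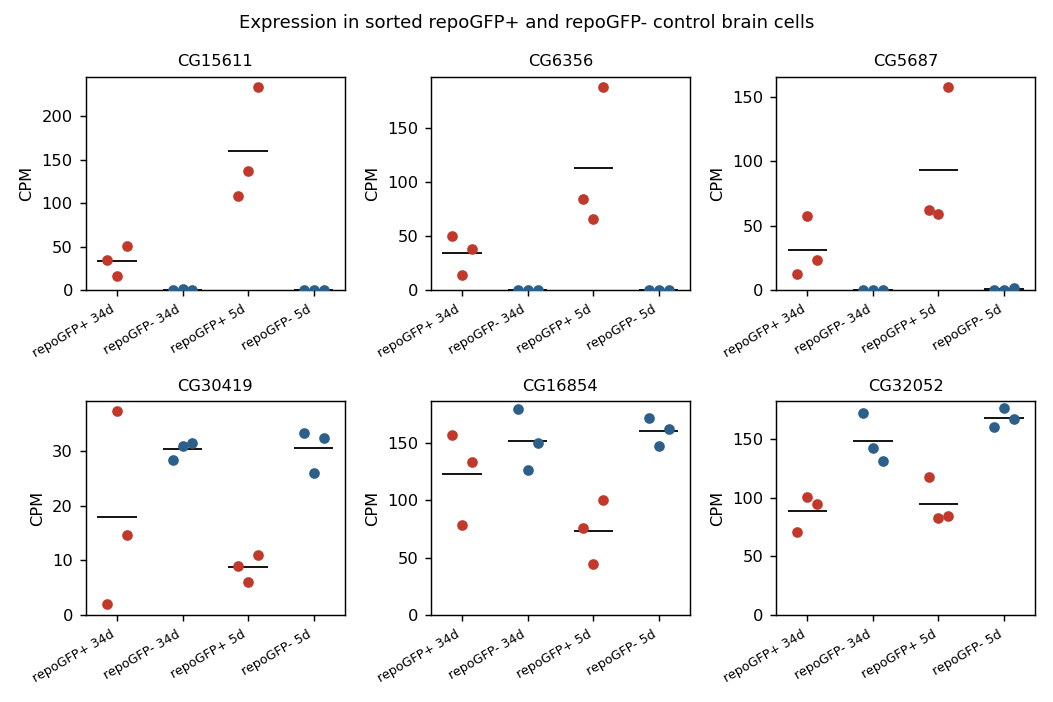
Expression (CPM) of 6 of the CG genes in sorted control RNAi cells, one point per library, repoGFP+ (red) left of repoGFP- (blue) at 34d and then at 5d, with lines at the group means. CG15611, CG6356 and CG5687 stood near 0 in repoGFP- cells, and CG30419, CG16854 and CG32052 stood lower in repoGFP+ than in repoGFP- cells at 5d.

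With age, 2 of the 97 genes tested rose and 7 fell in elavGFP+ control cells (34d against 5d), while 1.71% of all 10953 genes rose and 2.65% fell. The median log2 change was -0.20 for the genes and 0.03 for all genes. CG31324 (Cipc) had 91.2, 101, 96.6 and 110.4 CPM at 34d, against 38.3, 49.4 and 43.9 CPM at 5d (1.19 ± 0.17, SE, adjusted p = 0.0035). CG42365 had 37.8, 30.8, 29.2 and 34.4 CPM at 34d, against 18.4, 16.3 and 12.3 CPM at 5d (1.08, adjusted p = 0.0403). Both genes were also among those higher in Aβ42 brains.

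CG15522 had 1587, 1560.4, 1271 and 1488 CPM at 34d, against 3239, 4030.2 and 2946 CPM at 5d (-1.20 ± 0.12, SE, adjusted p = 0.000806). It overlaps alpha-Man-Ic on the opposite strand. CG3625 had 402, 437, 445 and 405 CPM at 34d, against 689, 678 and 811 CPM at 5d (-0.78, adjusted p = 0.00213). CG34351 (dcma) had 1612, 1493, 1352 and 1266 CPM at 34d, against 2245, 2599.6 and 1989.6 CPM at 5d (-0.67, adjusted p = 0.011). CG6154, the dipeptidase relative, had 161, 196, 183 and 189 CPM at 34d, against 314, 239.5 and 299.9 CPM at 5d (-0.64, adjusted p = 0.0213). CG8861 (-0.58), CG14669 and CG7646 fell as well, and no replicate overlapped for the genes with values here. Neuronal markers in these cells were at 9504 to 11782 CPM at 34d and 13023 to 17557 CPM at 5d. Glial markers in the same cells were also lower with age, at 2476 to 3437 CPM at 34d and 5497 to 7175 CPM at 5d. The part of both lists was not tested. The count of 9 was 5 without 34d replicate 1, 5d replicate 1 or 5d replicate 2, and 19 with DESeq2 (10.4% of all genes). In repoGFP+ control cells, edgeR called 0 of 92 genes between 34d and 5d (0.120% of all 9133 genes), with 12 at an unadjusted p under 0.05 (14.6% of all genes) and 5 with DESeq2 (7.56%).

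The RNA level of the genes after Mettl3 RNAi was then compared in sorted cells. None of them passed edgeR's test in elavGFP+ cells at 34d (0 of 95, 0.0366% of all 10928 genes) or 5d (0 of 96, 0% of all 10464), or in repoGFP+ cells at 34d (0 of 93, 0% of all 9124) or 5d (0 of 95, 0% of all 9101). At an unadjusted p under 0.05 there were 13 in elavGFP+ cells at 34d (7.66% of all genes) and 9 at 5d (5.46%), and in repoGFP+ cells 9 at 34d (7.10%) and 4 at 5d (4.12%). DESeq2 called 2 at 34d (1.51% of all genes) and 1 at 5d (0.430%) in elavGFP+ cells, and 1 at 34d (1.45%) and 0 at 5d (0.341%) in repoGFP+ cells. The medians were -0.05 and 0.02 in elavGFP+ cells at 34d and 5d and -0.02 in repoGFP+ cells at both ages. CG2993, among the 10 with the largest loss of m6A-IP signal, had 1185, 1131, 1138 and 1365 CPM in Mettl3 RNAi neurons at 34d, against 929, 985, 812 and 841 CPM in control neurons. The groups did not overlap, but the log2 change of 0.44 ± 0.10 (SE) had an adjusted p of 0.254.

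The TRAP IPs of both drivers were compared for RNA on tagged ribosomes. Glial markers summed to 909 to 1172 CPM in the elav IP and 4905 to 8280 CPM in the repo IP at 34d, and to 2032 to 2747 CPM in the elav IP and 10790 to 17631 CPM in the repo IP at 5d. Neuronal markers did not separate the drivers that way: they were at 3312 to 3972 CPM in the elav IP and 3655 to 5155 CPM in the repo IP at 34d, and overlapped at 5d (4016 to 5202 CPM in elav, 3509 to 4839 CPM in repo). Photoreceptor markers were at 20917 to 28357 CPM in the elav IP and 14788 to 20653 CPM in the repo IP at 34d, and at 21277 to 29007 CPM in elav and 12311 to 15290 CPM in repo at 5d. The repo IP thus held much neuronal and photoreceptor RNA, whose part in the calls was not tested. In control RNAi brains at 34d, 8 of the 97 genes tested were higher and 13 lower in the elav than in the repo IP, beside 7.86% and 12.3% of all 9385 genes. At 5d 19 of 99 were higher and 16 lower, beside 16.3% and 16.7% of all 9732 genes, so the shares lay near those of all genes. Sorted cells and TRAP used separate libraries. Of the 11 genes higher in repoGFP+ cells at 5d, 9 were higher in the repo IP. Of the 12 lower ones, 7 were higher in the elav IP, and the same overlap over all genes is not given here. The Spearman correlation of the changes was -0.41 over 95 genes.

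CG5687 had 81.1, 67.2, 77.2 and 98.0 CPM in the elav IP at 34d, against 172, 247, 302 and 120.2 CPM in the repo IP (log2 change -1.40, adjusted p = 0.00177). At 5d it had 86.1, 74.6 and 52.1 CPM in the elav IP, against 408, 388, 443 and 533 CPM in the repo IP (-2.61 ± 0.24, SE, adjusted p = 2.05e-05). CG6836 had 14.5, 17.0 and 21.2 CPM in the elav IP at 5d, against 79.1, 110.8, 99.4 and 93.6 CPM in the repo IP (-2.39). CG15611 had 8.43, 2.86 and 9.84 CPM in the elav IP at 5d, against 28.9, 32.4, 30.3 and 32.9 CPM in the repo IP (-2.17). These genes were also called higher in repoGFP+ cells of the sort at 5d, and their TRAP groups did not overlap at 5d.

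Among the genes higher in the elav IP, CG7646, a relative of the neuronal calcium sensors, had 271, 295, 249.9 and 359 CPM in the elav IP at 34d, against 58.5, 94.8, 130.1 and 77.3 CPM in the repo IP (1.68 ± 0.22, SE, adjusted p = 0.000234). At 5d it had 371, 378 and 436 CPM in the elav IP, against 92.2, 82.9, 81.0 and 78.5 CPM in the repo IP (2.28 ± 0.17, SE, adjusted p = 5.73e-06). It shares exons with Nca on the same strand. CG32052 had 266, 288 and 301 CPM in the elav IP at 5d, against 66.7, 67.8, 49.4 and 69.1 CPM in the repo IP (2.21). CG4341 (Tmtc2, an O-mannosyltransferase) had 149, 279 and 239 CPM in the elav IP at 5d, against 61.6, 52.8, 49.3 and 81.8 CPM in the repo IP (1.89). The elav libraries lay above every repo library for these genes. CG13272 had 49.4, 37.2 and 42.2 CPM in the elav IP at 5d, against 10.1, 12.5, 13.0 and 17.1 CPM in the repo IP (1.73). The 34d count of 21 was 13 without elav control replicate 1. The elav IP libraries of control flies at 5d were the shallowest (2132983 to 4972745 counts, against 7208483 to 8719278 in the repo IP).

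The TRAP IP/input ratio sets RNA on tagged ribosomes of the driver's cells against RNA of the whole brain lysate. It therefore also moves with the cell types that the IP and the lysate hold. Its change with Mettl3 RNAi was tested per driver and age on complete pairs of IP and input. With the elav driver at 34d 0 of 99 genes passed edgeR's test (0% of all 10110 genes), with 14 at an unadjusted p under 0.05 (8.42% of all genes) and 0 with DESeq2 (0.247%). At 5d 6 of 99 rose and 0 fell, beside 1.23% and 0.313% of all 10237 genes, with a median of 0.18 (all genes 0.02). With the repo driver 0 of 98 passed at 34d (0% of all 9946 genes), with 7 at an unadjusted p under 0.05 (4.82% of all genes) and 0 with DESeq2 (0.201%). At 5d 0 of 99 passed in glia (0.137% of all 10240 genes rose and 0.518% fell), with a median of -0.17 (all genes 0.00). At an unadjusted p under 0.05, 5 were higher and 25 lower (5.60% and 9.29% of all genes), and DESeq2 called 7 (3.38% of all genes).

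The 6 genes that rose with the elav driver at 5d were CG13300, CG17075, CG42750, CG6006, CG31324 and CG32206. CG13300 (FBgn0035699, 3L, 6329324 to 6352390, minus strand) had log2 ratios of 0.71, 1.07, 1.09 and 1.11 with Mettl3 RNAi, against -0.55, -1.08 and -0.92 with control RNAi (change 2.07 ± 0.39, SE, adjusted p = 0.0177). Its IP libraries held 180 to 242 counts with Mettl3 RNAi and 16 to 23 with control RNAi. CG17075 (2L, 259949 to 267505, minus strand) had 0.41, 1.41, 0.82 and 1.32 with Mettl3 RNAi, against -1.91, -0.84 and -0.05 with control RNAi (1.86, adjusted p = 0.0381), with 266 to 506 IP counts with Mettl3 RNAi and 7 to 104 with control RNAi. It overlaps lncRNA:CR44219 on the opposite strand. CG42750, a membrane dipeptidase relative, had 1.86, 1.97, 2.91 and 2.19 with Mettl3 RNAi, against 1.43, 0.34 and 0.36 with control RNAi (1.57, adjusted p = 0.0205). It overlaps asRNA:CR43413 on the opposite strand. It held 2333 to 3303 IP counts with Mettl3 RNAi and 326 to 552 with control RNAi. The groups did not overlap for these genes, and CG13300 and CG17075 had few counts in the control IPs. At 34d the changes of the 6 genes were 0.55, 0.48, 0.29, 0.14, 0.69 and 0.38, in the order named.

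This count was not stable. It was 0 without control replicate 2, without Mettl3 RNAi replicate 2, 3 or 4 and without the pairing, 1 without control replicate 3, 11 without Mettl3 RNAi replicate 1 and 17 without control replicate 1, and DESeq2 called 14 (4.46% of all genes). In repo at 5d, 4 genes were called without Mettl3 RNAi replicate 1, 2 without control replicate 1 and 3 without control replicate 4, and in elav at 34d 4 were called without Mettl3 RNAi replicate 4.

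The change with Mettl3 RNAi differed between the drivers at 5d. The difference, elav minus repo, passed edgeR's test in the positive direction for 15 and in the negative for 1 of 99 genes, beside 3.15% and 0.448% of all 10718 genes, with a median of 0.43 (all genes 0.10). With RLE scaling 9 were positive and 2 negative, and the split over all genes was 240 positive and 61 negative (median 0.00), in place of 338 and 48. CG17075 changed by 1.86 in elav and -0.95 in repo, a difference of 2.84 ± 0.52 (SE, adjusted p = 0.00256). In repo its ratios were -0.10, 0.06 and -0.58 with Mettl3 RNAi, against 1.04, 0.59, 0.34 and 0.71 with control RNAi. CG42750 changed by 1.57 in elav and -0.60 in repo (difference 2.21 ± 0.41, adjusted p = 0.00391). In repo its ratios were 0.67, 0.59 and 0.98 with Mettl3 RNAi, against 2.02, 1.05, 1.20 and 0.98 with control RNAi.

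Of the 10 genes with the largest loss of m6A-IP signal, CG4168 and CG42392 (difference 1.47) were among the positive ones. CG4168 changed by 1.21 in elav and -0.79 in repo (2.04, adjusted p = 0.00424). CG42260, the cyclic nucleotide-gated channel subunit, changed by 1.22 in elav and -0.64 in repo (1.90). CG13300, CG42663, CG32206, CG42594, CG12541, CG33543, CG6006, CG1090, CG31324 and CG45049 were the other positive ones, and CG5346 was the negative one (-1.70 in elav, 0.14 in repo). Glial markers in the IP moved with the groups. In repo they summed to 21359 to 24706 CPM with Mettl3 RNAi and 10790 to 17631 CPM with control RNAi, and neuronal markers to 2343 to 2780 CPM with Mettl3 RNAi and 3509 to 4839 CPM with control RNAi. In elav, glial markers summed to 1522 to 1735 CPM with Mettl3 RNAi and 2032 to 2747 CPM with control RNAi, and neuronal markers to 4641 to 7157 CPM with Mettl3 RNAi and 4016 to 5202 CPM with control RNAi. Their part in the difference was not tested. The count of 16 ranged from 4 (without repo control replicate 1) to 19 (without elav Mettl3 RNAi replicate 1). It was 10 without elav control replicate 2, and 5 to 8 without elav Mettl3 RNAi replicate 3 or 4, repo Mettl3 RNAi replicate 2 or 3, or repo control replicate 2. At 34d the difference passed for 0 of 99 genes (0% of all 10539 genes), with 15 at an unadjusted p under 0.05 (5.47% of all genes) and 0 with DESeq2 (0.0285%).

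**Figure D5:**
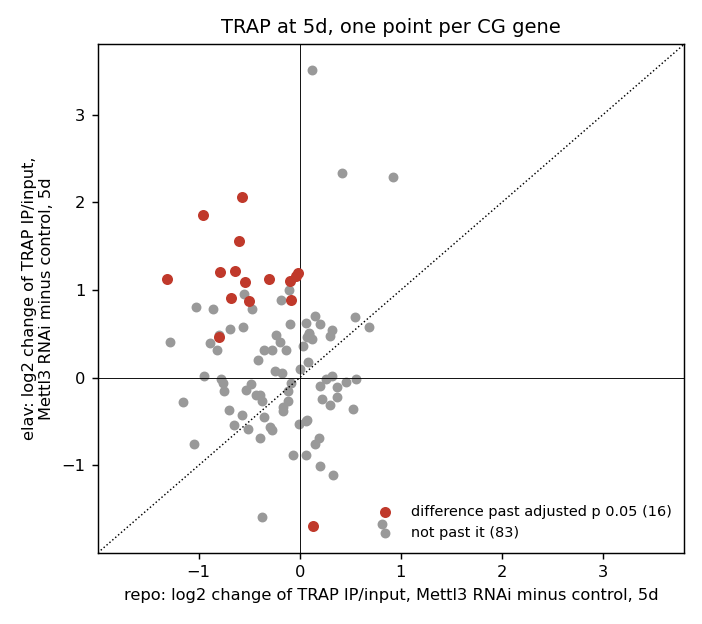
Log2 change of the TRAP IP/input ratio with Mettl3 RNAi against control RNAi at 5d, with the elav driver (vertical axis) and the repo driver (horizontal axis), one point for each of 99 CG genes and a dotted line where both are equal. The 16 genes whose difference passed an adjusted p of 0.05 are red, 15 of them above the line, and the other 83 are grey.

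The TRAP inputs give the RNA level of the whole brain lysate with Mettl3 RNAi in neurons or glia. With the elav driver at 34d, 2 of 99 genes rose and 0 fell, beside 0.317% and 0.113% of all 9773 genes. With the repo driver at 34d, 2 of 96 rose and 1 fell, beside 0.589% and 0.289% of all 9345 genes. CG13272 rose with both drivers. With the elav driver it had 44.6, 46.8, 42.8 and 43.9 CPM with Mettl3 RNAi, against 17.4, 14.4, 18.0 and 29.9 CPM with control RNAi (log2 change 1.16 ± 0.18, SE, adjusted p = 0.00685), and it passed without each of the 8 libraries. With the repo driver it had 16.9, 21.4, 18.7 and 20.2 CPM with Mettl3 RNAi, against 4.96, 4.67, 11.0 and 9.29 CPM with control RNAi (1.36 ± 0.27, SE, adjusted p = 0.0264). No library of the groups overlapped with either driver.

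In the 5d inputs, where no test was run, CG13272 overlapped between the groups: 58.4, 49.5, 50.5 and 40.2 CPM with Mettl3 RNAi, against 54.9, 44.9, 37.4 and 57.7 CPM with control RNAi in elav, and 42.4, 43.4, 30.6 and 41.5 CPM with Mettl3 RNAi, against 33.5, 30.8, 32.8 and 47.9 CPM with control RNAi in repo. CG13272 was at most at 3.24 CPM in elavGFP+ cells and 1.59 CPM in the repo sort.

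With the elav driver CG6145 (the NAD kinase Nadk1a) had 51.3, 56.7, 49.0 and 44.0 CPM with Mettl3 RNAi at 34d, against 33.0, 33.5, 33.3 and 23.7 CPM with control RNAi (0.71, adjusted p = 0.0397). With the repo driver CG6356 had 64.0, 53.5, 50.7 and 58.4 CPM with Mettl3 RNAi at 34d, against 29.4, 31.6, 36.1 and 22.6 CPM with control RNAi (0.91, adjusted p = 0.0161). CG15611 had 7.85, 10.1, 18.2 and 9.76 CPM with Mettl3 RNAi, against 26.5, 34.3, 23.8 and 22.4 CPM with control RNAi (-1.22, adjusted p = 0.0294). Both are genes of the repoGFP+ side, and they moved in opposite directions. In these repo inputs photoreceptor markers separated the groups (76771 to 88665 CPM with Mettl3 RNAi, 45406 to 64767 CPM with control RNAi), while glial markers overlapped (1698 to 2137 CPM with Mettl3 RNAi, 1969 to 2146 CPM with control RNAi). In the elav inputs at 34d glial markers separated them (1907 to 2103 CPM with Mettl3 RNAi, 2206 to 2959 CPM with control RNAi), while photoreceptor markers overlapped (47597 to 55870 CPM with Mettl3 RNAi, 38185 to 62503 CPM with control RNAi). The part of these markers in the changes was not tested. In repoGFP+ cells at 34d CG6356 had 137, 266 and 107 CPM with Mettl3 RNAi, against 50.6, 14.5 and 38.2 CPM with control RNAi, without overlap but with an adjusted p of 0.423 (chosen after its values were seen). The repo count of 3 was 0 without Mettl3 RNAi replicate 1, 2 or 4 or control replicate 1, and the elav count of 2 was 1 in some of the leave-outs.

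Of the 100 genes, 88 were tested in every comparison, the others having too few counts in some libraries. CG13796, an SLC6 relative, was called in none. In the comparisons of Mettl3 RNAi with control RNAi within a driver, edgeR called 10 of the genes, all of them in TRAP. It called 0 of the genes in sorted cells. The 10 are those named above for the elav ratio at 5d and for the 34d inputs, where the shares of all genes are given.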

How the data were processed

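The authors deposited 1 table of raw counts, whole-number reads per gene for 17562 genes in 140 libraries, all of which were used (0 columns were left out). According to the study's methods and the submitters' processing notes, reads were trimmed with Trim Galore, aligned with STAR 2.7.3a and handled with SAMtools, and exonic reads per FlyBase gene were then counted by the authors with summarizeOverlaps and left without normalization. DESeq2 and deepTools are also named in these notes. Whole-gene counts do not separate the UTRs, and the strand setting of the counting is not given in the sources used here.

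The choice of genes used CPM from library totals and a pseudocount of 1 CPM. Other CPM values were scaled by TMM factors within each experiment. Tests used edgeR 4.0.16 (R 4.3.3): TMM scaling, filterByExpr, a robust quasi-likelihood fit per comparison on all genes, and Benjamini-Hochberg adjustment over all genes tested with a threshold of 0.05. Ratios of IP to input were fitted as an interaction, with each IP and its input as a pair. TRAP inputs with no IP partner were left out of these fits. Printed log2 ratios of single pairs are on the log2(CPM + 1) scale, so they understate low genes, and fitted changes are on the count scale. Fold ratios of genes with 3 or fewer counts in the lower group's libraries were given with an exact counting interval. The same code was tested on simulated data. Of the 170 pairs of replicates, none agreed within sampling noise.

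The genes and lists were chosen with earlier results of these data known. Named are the 10 genes with the largest loss, up to 5 genes per direction and comparison past the threshold, with at least 10 CPM in the higher group and no overlap of replicates, and the genes at the limit of the choice. For tests of a difference between drivers or ages, the CPM minimum and the rule on overlap were not applied. Others are named where a count is spelled out or where they stood out after their values were seen. Alternatives were DESeq2 1.42.0, RLE scaling, no filter on low counts, the replicate block, RUVr with 1 factor for sorted cells and leaving out each replicate. Coordinates, UTR lengths and exon overlaps are from BDGP6.54, the dm6 assembly. No sequence is printed, and the planned description of motifs and protein lengths was not made.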

Additional observations from a re-analysis of the deposited data

Results flagged for a closer look

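The following 6 genes had a TRAP IP/input change with Mettl3 RNAi at 5d that differed between the drivers. This rests on a test of the difference itself (edgeR's quasi-likelihood test with Benjamini-Hochberg adjustment). They had the largest differences past the threshold, up to 5 per direction. No minimum of CPM and no rule on the overlap of replicates was applied here. The other 10 genes past the threshold are given above. The difference, elav minus repo on the log2 scale, was 2.84 ± 0.52 for CG17075 (SE, adjusted p = 0.00256), 2.69 ± 0.67 for CG13300 (adjusted p = 0.0212) and 2.46 ± 0.60 for CG42663 (adjusted p = 0.0179). It was 2.21 ± 0.41 for CG42750 (adjusted p = 0.00391) and 2.04 ± 0.39 for CG4168 (adjusted p = 0.00424). For CG5346 it was -1.80 ± 0.50 (adjusted p = 0.0429). CG42663 changed by 1.12 in elav and -1.31 in repo.

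In the 16 groups of 4 or more libraries that were examined for a library far from the others, 0 such libraries were found in the median of the 100 genes minus that of all genes. Chance flags about 1 in 20 groups.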

How the results depend on the processing

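Counts of the 100 genes past the threshold are given here in both directions together. For DESeq2 the shares of all genes stand above, and for the other settings of this section they are not given. DESeq2 called 11 genes between repoGFP+ and repoGFP- cells at 34d (5 with edgeR), 19 between 34d and 5d in elavGFP+ cells (9) and 5 in repoGFP+ cells (0). With Mettl3 RNAi it called 2 in elavGFP+ cells at 34d, 1 at 5d and 1 in repoGFP+ cells at 34d (0 each), and for the TRAP ratio 14 in elav at 5d (6) and 7 in repo at 5d (0). For the difference between ages in the glia comparison it called 2 (0). Without the filter on low counts the counts were 3 for repoGFP+ against repoGFP- cells at 34d, 2 for age in repoGFP+ cells, 16 for the TRAP ratio in elav at 5d and 6 in repo at 5d. RLE scaling gave 1 for the TRAP ratio in repo at 5d, and RUVr with 1 factor gave 2 for age in repoGFP+ cells. The cause of these changes was not tested.

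Without the pairing of IP and input (no replicate block), 29 genes in place of 70 were called for the m6A-IP/input ratio with Aβ42 and 0 in place of 6 for the TRAP ratio in elav at 5d. With the replicate number as a block, 3 were called for repoGFP+ against repoGFP- cells at 34d and 4 for age in elavGFP+ cells. In no comparison did every pair of same-numbered libraries deviate together with a correlation over 0.1 (range -0.31 to 0.11), so outside the IP and input pairs the numbers were not taken as a pairing.

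Leaving out each replicate gave 40 to 76 genes for the m6A-IP/input ratio with Aβ42, 85 to 86 for m6A-IP against input, 27 to 39 for head inputs and 21 to 42 for brains with Aβ42. It gave 13 to 22 for repoGFP+ against repoGFP- cells at 5d and 2 to 3 at 34d, and 5 to 9 for age in elavGFP+ cells. For TRAP it gave 27 to 49 for elav against repo at 5d and 13 to 25 at 34d, 0 to 17 for the ratio in elav at 5d, 0 to 4 in elav at 34d and 0 to 4 in repo at 5d, 1 to 2 for elav inputs and 0 to 4 for repo inputs. For the difference between drivers at 5d, where leaving out replicates was added after seeing the data, it gave 4 to 19. Of 3229 values of named genes under the alternatives, 0 reversed, 178 lost their call and 29 gained one. Total counts were lowest in the elav control TRAP IP libraries at 5d (2132983 to 4972745), and their part in these counts was not tested.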
